A study of Mus musculus with 8 samples.

Results

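The genes of DNA end joining were examined in ATAC-seq peak lists of mouse DN3 thymocytes. They are Xrcc5, Xrcc6, Prkdc, Dclre1c, Xrcc4, Lig4, Nhej1, Polm, Atm and Trp53bp1, 10 of 21883 protein-coding genes. For each gene, every open region overlapping the gene body or the 10 kb on either side was taken, which gave 97 of 180321 regions. ATAC-seq maps open chromatin by the places where a transposase can insert sequencing adapters. DN3 thymocytes are early T-cell precursors. The libraries came from C57BL/6 mice, 2 with homozygous mutations at GATA sites 1 and 2 of N-Me, the Notch-Myc enhancer, and 2 with a wild-type N-Me. The 4 T-cell leukaemia samples of the series are not analysed here. The labels give no age and do not say whether the 2 libraries of a genotype came from separate mice, so p-values measure only the spread between these libraries.

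End joining repairs broken DNA by bringing the ends together and ligating them without a template. In developing T cells it also completes V(D)J recombination, in which the RAG enzyme cuts antigen receptor genes. A ring of Xrcc5 and Xrcc6 binds the ends, the kinase Prkdc and the nuclease Dclre1c open hairpin ends, and Lig4 seals them together with Xrcc4 and Nhej1. DN3 is the stage at which the T-cell receptor beta gene is rearranged.

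Each library has its own list of peaks, called by the authors. A region is the merged stretch of overlapping peaks from the 4 lists, and a library has a region if any of its peaks touches it. The fold of a peak is the authors' ratio of reads piled up there to the local background of that library, averaged over the peak. It describes a peak within its own list and was not tested between lists. The mutant lists hold 121022 and 119023 peaks and the wild-type lists 169255 and 156372 peaks. Depth cannot be read from peak lists, so a missing peak says that none was called, not that the place was closed. Mutant lists also have a longer shortest peak (73 and 87 bp, against 64 and 65 bp in wild type) and join neighbouring peaks over longer gaps. As a check of the cell label, 8 of 8 markers of DN3 cells, Ptcra, Il2ra and Rag1 among them, had a peak within 1 kb of a start in every library. Of 12 markers of erythroid, B, myeloid and thymic stromal cells, 4 did (Klf1, Pax5, Cd79a and Epcam), and Gata1, Hba-a1, Elane and Psmb11 had none in any library. Over all protein-coding genes 66.8% had such a peak in every library, so 8 of 8 is only a weak check. Csf1r and Mpo, markers of myeloid cells, had one in both wild-type libraries and in neither mutant library. Their part in the results below was not tested.

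The sequences before the starts show what kind of promoter these peaks lie on. RefSeq (GRCm38.p6, the build of the peak lists) gives 10 windows for 9 members, with 2 starts for Lig4, and the 250 bases before the start are used. Capitals mark exact matches on either strand. The motifs searched were GGGCGG, the GC box, then CCAAT, the CCAAT box, and CCGGAA, bound by ETS factors. Those of NRF1 (GCATGCG), RBPJ (TGGGAA), RUNX (TGTGGT) and CRE-binding factors (TGACGT) were searched too. The E box was searched as CAGCTG and also in the form CACCTG, and the GATA motif as AGATAA and also in the form TGATAA. No matches to different motifs overlap in these windows. Shown are Xrcc4, the outer and inner Lig4 starts, Atm, Xrcc5 and Nhej1. Xrcc4, the outer Lig4 start and Atm were chosen because another gene starts just behind them in the opposite direction. The inner Lig4 start carries the stronger peak, and Xrcc5 is the window with the lowest GC content. Nhej1 holds the only match to either GATA form searched. The windows lie at chr13:90089609-90089858 (minus strand), chr8:9977681-9977930 (minus), chr8:9976312-9976561 (minus), chr9:53536672-53536921 (minus), chr1:72307171-72307420 (plus) and chr1:75125227-75125476 (minus), in the order printed below.
Xrcc4: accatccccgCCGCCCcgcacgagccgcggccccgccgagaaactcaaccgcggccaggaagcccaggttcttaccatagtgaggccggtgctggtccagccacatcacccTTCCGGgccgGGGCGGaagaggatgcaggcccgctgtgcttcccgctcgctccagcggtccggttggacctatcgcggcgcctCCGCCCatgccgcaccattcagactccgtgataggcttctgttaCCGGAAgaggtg
Lig4, outer start: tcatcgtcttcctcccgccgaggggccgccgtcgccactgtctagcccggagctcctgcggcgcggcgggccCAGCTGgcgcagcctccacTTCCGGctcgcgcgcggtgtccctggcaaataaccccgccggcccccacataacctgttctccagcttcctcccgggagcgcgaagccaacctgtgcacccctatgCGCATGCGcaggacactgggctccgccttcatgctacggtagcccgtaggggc
Lig4, inner start: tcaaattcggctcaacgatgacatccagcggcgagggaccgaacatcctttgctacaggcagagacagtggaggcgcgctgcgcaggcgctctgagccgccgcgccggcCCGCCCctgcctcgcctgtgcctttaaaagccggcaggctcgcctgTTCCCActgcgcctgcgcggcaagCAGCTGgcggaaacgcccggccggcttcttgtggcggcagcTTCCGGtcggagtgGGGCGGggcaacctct
Atm: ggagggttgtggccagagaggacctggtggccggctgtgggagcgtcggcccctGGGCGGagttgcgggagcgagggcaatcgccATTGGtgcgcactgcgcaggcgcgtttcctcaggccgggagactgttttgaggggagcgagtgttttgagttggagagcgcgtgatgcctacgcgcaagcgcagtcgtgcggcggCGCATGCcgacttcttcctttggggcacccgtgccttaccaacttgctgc
Xrcc5: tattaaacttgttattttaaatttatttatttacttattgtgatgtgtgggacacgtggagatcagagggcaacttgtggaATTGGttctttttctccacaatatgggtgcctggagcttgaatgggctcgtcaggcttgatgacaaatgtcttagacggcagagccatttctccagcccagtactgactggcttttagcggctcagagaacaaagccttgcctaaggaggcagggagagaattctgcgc
Nhej1: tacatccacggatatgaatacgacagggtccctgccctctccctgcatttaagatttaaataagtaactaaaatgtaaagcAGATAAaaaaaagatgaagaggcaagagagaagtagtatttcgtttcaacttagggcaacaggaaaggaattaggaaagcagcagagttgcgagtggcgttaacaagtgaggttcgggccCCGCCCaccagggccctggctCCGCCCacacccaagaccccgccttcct

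The GC box was present in 8 of the 10 member windows and in 42.6% of the 21262 windows of protein-coding genes, with or without a start peak. By gene, it was found at 8 members, all but Xrcc5 of the 9 with a sequence, and at Lig4 only before the inner start. The median GC content was 62.2% for the 10 member windows and 55.6% for all windows, and the ratio of observed to expected CpG was 0.807 and 0.530. GC content ran from 44.8% at Xrcc5 and 48.4% at Nhej1 to 70.0% at the outer Lig4 start, and the windows of Xrcc5, Nhej1, Trp53bp1 (54.4%) and Dclre1c (54.8%) lay below the median of all windows. Xrcc5 had 1 CCAAT match and no GC box. CCGGAA was found at Xrcc4 and at both Lig4 starts (15.0% of all windows), CCAAT at Xrcc5, Dclre1c, Atm and Polm (35.4%), and GCATGCG at Lig4 and Atm (3.73%). CAGCTG was found at Lig4, Dclre1c and Polm (12.1%), and TGGGAA at the inner Lig4 start (20.9%). Of the GATA letters, AGATAA occurred at Nhej1 (8.81% of all windows) and TGATAA at no member (6.94%). No member window held TGTGGT (12.4%), CACCTG (16.9%) or TGACGT (7.37%). A match is only a run of letters in this window, and other forms of the GATA motif were not searched. Of the 9 members, 4 had a start of another protein-coding gene on the opposite strand within 1 kb behind their own, against 8.48% of 17491 genes: Xrcc4 (Tmem167, 59 bases away), Xrcc6 (Desi1, 149 bases), Lig4 (Abhd13, 37 bases) and Atm (Npat, 376 bases). At such starts the peak belongs to both genes.

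All 10 members had a start peak, meaning a peak within 1 kb of a start, in 4 of 4 libraries. Over all protein-coding genes this share was 66.8% (14624 of 21883). In each of the 40 gene and library pairs the peak covered an annotated start base. Prkdc has no entry in the promoter table, and its annotated end beside Mcm4 was used in place of a start. The group was therefore open at its starts in both genotypes.

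**Figure D1:**
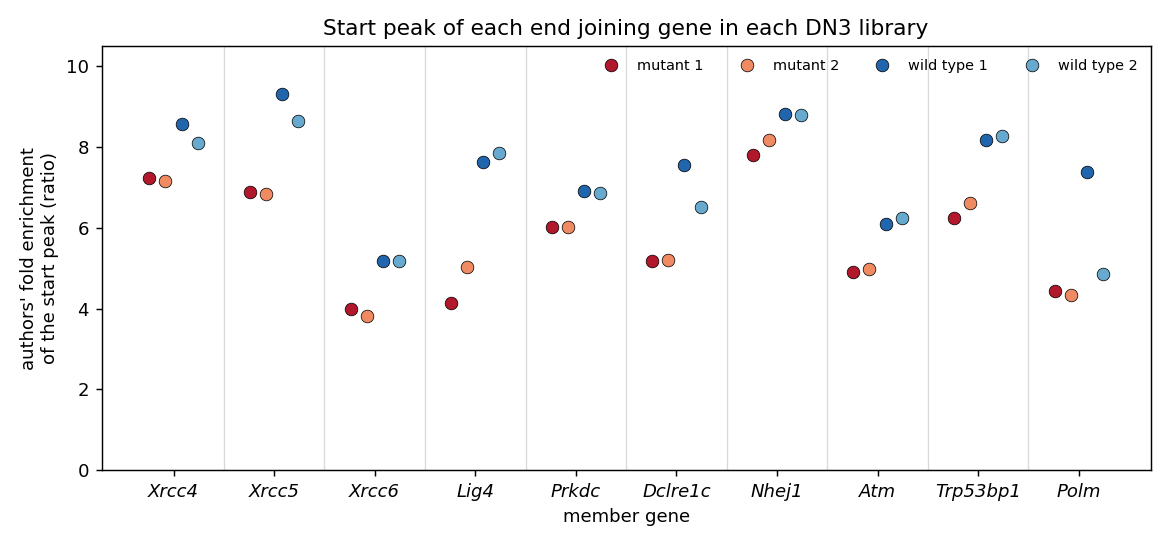
The authors' fold enrichment (vertical axis, ratio) of the start peak of each member gene (horizontal axis) in the 2 mutant and 2 wild-type libraries, 1 point per library. Nhej1 lies between 7.79 and 8.82 in the 4 lists and Xrcc6 between 3.81 and 5.18, and each value is relative to the background of its own list.

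The Ku genes, whose products form the ring that first binds a DNA end, had unlike surroundings. Xrcc5, the larger Ku subunit (chr1:72307417-72394953), had a start peak with fold 6.88 and 6.83 in the mutant lists and 9.31 and 8.65 in the wild-type lists. Among the start peaks of all genes in the same list, these stood at percentiles 76.1 and 71.9 in mutant and 86.6 and 83.8 in wild type. They were thus in the upper part of each list, though ranks from lists of unequal length show no change between genotypes. Beyond the start, Xrcc5 had 2 regions called in all 4 libraries, of which the higher, at chr1:72313532-72314084, lay 6.11 kb into the gene with fold 4.33 and 5.26 in mutant and 4.42 and 4.41 in wild type. The other 3 of its 6 regions were 84 to 214 bp wide peaks of wild type 1 alone. No region of the Xrcc5 window was specific to a genotype.

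Xrcc6, the smaller Ku subunit (chr15:81987833-82040085), had the most crowded window. It held 21 regions, or 29.1 per 100 kb, at percentile 92.4 among windows of all protein-coding genes, whose median was 13.1 per 100 kb. Of these regions 15 were called in all 4 libraries. Peaks covered 13.7% and 16.7% of the window in the mutant lists and 14.1% and 13.7% in the wild-type lists. The start peak, shared with Desi1, had fold 4.002 and 3.81 in mutant and 5.18 and 5.17 in wild type, the lowest start fold of the 10 members in mutant 1, mutant 2 and wild type 1. Several of its regions were weak but called everywhere, such as chr15:82019362-82019559, with fold 1.52 and 1.71 in mutant and 1.71 and 1.62 in wild type. The region that reached the highest fold away from gene starts, chr15:81989627-81990919, had fold 3.25 and 3.78 in mutant and 3.80 and 5.49 in wild type. It lies in the long annotated gene body, 25.45 kb before the start used here.

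Among regions only in wild type, the Xrcc6 window held 2, both weak and in the flanks. The one at chr15:81985912-81986058 had fold 1.85 and 1.99 in the wild-type lists, with the closest mutant peak 3591 and 3582 bp away. The one at chr15:82044992-82045193, inside Snu13, a gene of the splicing machinery, had fold 1.63 and 1.57, and mutant peaks came within 484 and 417 bp.

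Prkdc and Dclre1c, the kinase and the Artemis nuclease that open hairpin ends, each had a strong region away from the start. The peak at the Prkdc end beside Mcm4, a subunit of the replicative helicase whose annotated end is next to it, had fold 6.02 and 6.02 in the mutant lists and 6.91 and 6.86 in the wild-type lists. A region in the middle of the gene, at chr16:15720729-15721157, had fold 3.15 and 3.04 in mutant and 2.57 and 2.25 in wild type. The Prkdc gene body (chr16:15637444-15842239) was sparse, with 7 regions in a window of 225 kb (3.11 per 100 kb, percentile 20.7). Near its far end, at chr16:15838432-15838905, lay a region called in all 4 libraries with fold 4.43 and 5.88 in mutant and 10.1 and 10.2 in wild type.

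That far region was stronger than the start peak in the wild-type lists only. Divided by the fold of the start peak in the same list, it reached 0.736 and 0.978 in mutant and 1.46 and 1.48 in wild type. Of 13527 genes with a start region and another region called in all 4 libraries, 14.7% had a region above the start peak in both wild-type lists and below it in both mutant lists, so this order is not rare. The width of the peak moved with it, at 474 and 329 bp in mutant and 183 and 178 bp in wild type, and since fold is averaged over the peak, the part of width in this order was not tested. The opposite order, above the start in both mutant lists and below it in both wild-type lists, was seen in 8.38% of genes. Among the members Xrcc6 showed it, at chr15:82027120-82028384 (1.003 and 1.011 in mutant, 0.976 and 0.879 in wild type) and at chr15:82040559-82041129 (1.006 and 1.05 in mutant, 0.772 and 0.926 in wild type). The Xrcc6 start peak it was set against was 1616 and 2332 bp wide in mutant and 1458 and 1470 bp in wild type.

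Dclre1c (chr2:3424061-3474211) had 11 regions, 6 of them in all 4 libraries. Its start peak had fold 5.18 and 5.20 in mutant and 7.56 and 6.51 in wild type. A region inside the gene at chr2:3430782-3431555, 6.65 kb past the start, exceeded it in every list, with fold 6.54 and 6.66 in mutant and 9.23 and 8.75 in wild type. As a ratio to the start peak of its list this was 1.26 and 1.28 in mutant and 1.22 and 1.35 in wild type, and the genotypes overlap. It was the only region of the member windows away from any gene start that exceeded the start peak in all 4 lists. The window also takes in the starts of Meig1 and of Suv39h2, a histone methyltransferase. A Meig1 start lies within 1 kb of the Dclre1c start region, so the start peak may not belong to Dclre1c alone. One weak region in the flank, at chr2:3480925-3481045 (121 bp), was called only in wild type, with fold 2.26 and 2.46, and mutant 2 had a peak 421 bp away.

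**Figure D2:**
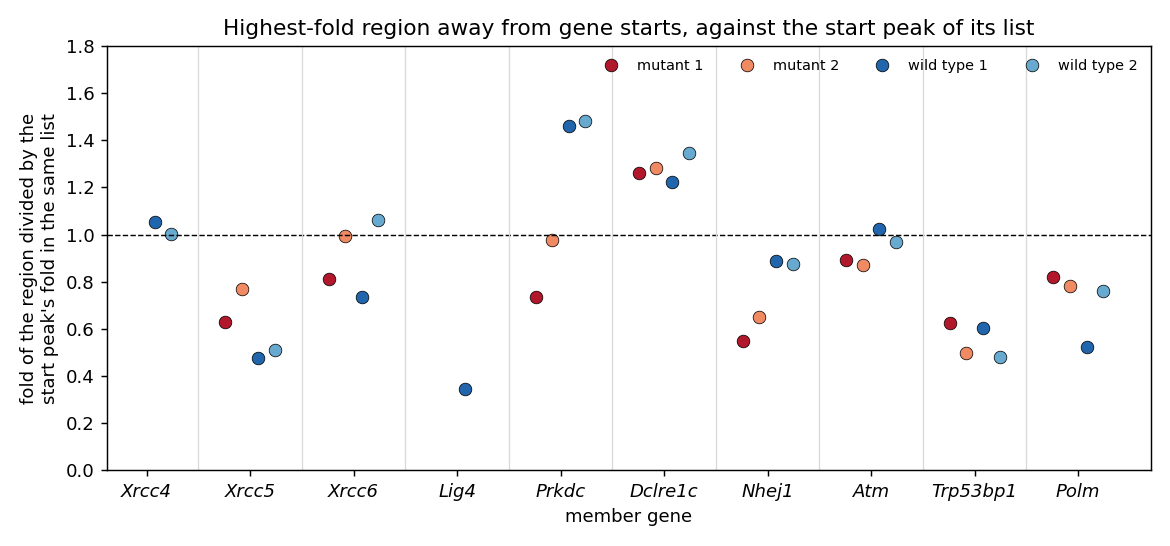
For each member gene (horizontal axis), the region with the highest fold that is not within 1 kb of any gene start, as its fold divided by the start peak's fold in the same list (vertical axis, ratio, dashed line at 1), with 1 point per library that has the region. Dclre1c lies above 1 in all 4 lists, Prkdc lies at 0.736 and 0.978 in the mutant lists and at 1.46 and 1.48 in the wild-type lists, and Xrcc4 has points from the wild-type lists alone and Lig4 a point from wild type 1 alone.

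Xrcc4, Lig4 and Nhej1 form the ligation complex. Lig4, the ligase itself, is short (chr8:9970020-9977680) and has 2 annotated starts. The inner start carried the higher fold in every list, 4.14 and 5.02 in mutant and 7.64 and 7.86 in wild type. The outer start, shared with Abhd13, had 2.41 and 2.68 in mutant and 3.42 and 3.28 in wild type. At the inner start the mutant lists had 1 peak of 1446 and 1373 bp, where the wild-type lists had 2, the higher of them 626 bp wide in both. Fold is averaged over the peak, so these values rest on unlike widths. The only other regions were weak peaks in the flank. The region at chr8:9962925-9963174 was called only in wild type with fold 2.25 and 2.25, and the closest mutant peaks were 12010 and 12073 bp away.

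Nhej1, the factor that supports ligation and is also called XLF, had a start peak with fold 7.79 and 8.18 in mutant and 8.82 and 8.79 in wild type, the highest of the members in every list but wild type 1. Its gene (chr1:74967346-75125226) held 10 regions in the window, 7 of them in all 4 libraries. The strongest away from a start, at chr1:74964449-74964799, lay in the flank beyond the far end of the gene, with fold 4.27 and 5.31 in mutant and 7.83 and 7.70 in wild type. It stayed below the start peak in every list, at ratios of 0.548 and 0.649 in mutant and 0.888 and 0.875 in wild type. The 1 region called only in wild type, chr1:75133292-75133738 (447 bp), lay near a start of Slc23a3, of the solute carrier family, with fold 2.68 and 2.36.

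Xrcc4, the scaffold that holds the ligase, had the genotype-specific region with the highest fold of all 12 in the member windows. Its gene (chr13:89848914-90089608) had 8 regions, of which 4 were called in all 4 libraries and 4 only in wild type. The start peak, shared with Tmem167, had fold 7.22 and 7.15 in mutant and 8.56 and 8.11 in wild type. Inside the gene, 90.2 kb past the start, the region at chr13:89998608-89999378 had no peak in either mutant list, and fold 9.01 and 8.12 in wild type. The −log10 q of these wild-type peaks was 78.5 and 45.4. Both wild-type peaks were 769 bp wide, with edges 2 bp apart. Their fold was 1.05 and 1.00 times that of the start peak in the same list. The closest mutant peaks were 8027 and 8024 bp away.

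By the lower of its 2 folds this region ranked 3 among the 20194 regions called only in wild type. Of these, 4 reached fold 8 in each wild-type list (0.0198%), and 3 of the 4 were at least 500 bp wide (0.0149%). It was called only in wild type under every alternative tried and without any 1 library. None of these settings could add a mutant peak there, so they do not test the call. Narrower peaks made up the other 3 Xrcc4 regions of this kind. At chr13:90051838-90052008 (171 bp) fold was 3.81 and 3.63, with the closest mutant peaks 37008 and 37042 bp away. At chr13:89975534-89975656 (123 bp) it was 3.68 and 3.29, and at chr13:90009927-90010098 (172 bp) 2.21 and 2.998. Of all protein-coding gene windows 4.32% had 4 or more regions only in wild type, but among 496 windows within 20% of the length of this one the share was 30.4%. The number at Xrcc4 is thus common for so long a window, and the strength of the one region is what sets it apart in rank.

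The 4 Xrcc4 regions called everywhere were the start and 3 inside the gene. At chr13:89889064-89889444 fold was 4.94 and 6.38 in mutant and 6.32 and 6.49 in wild type. At chr13:89968707-89969162 it was 5.14 and 5.29 in mutant and 7.85 and 5.97 in wild type. At chr13:90007402-90007660, 8.02 kb from the region absent from the mutant lists, it was 2.60 and 2.74 in mutant and 3.48 and 2.96 in wild type. The gene body was thus called open in the mutant lists on both sides of that region.

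**Figure D3:**
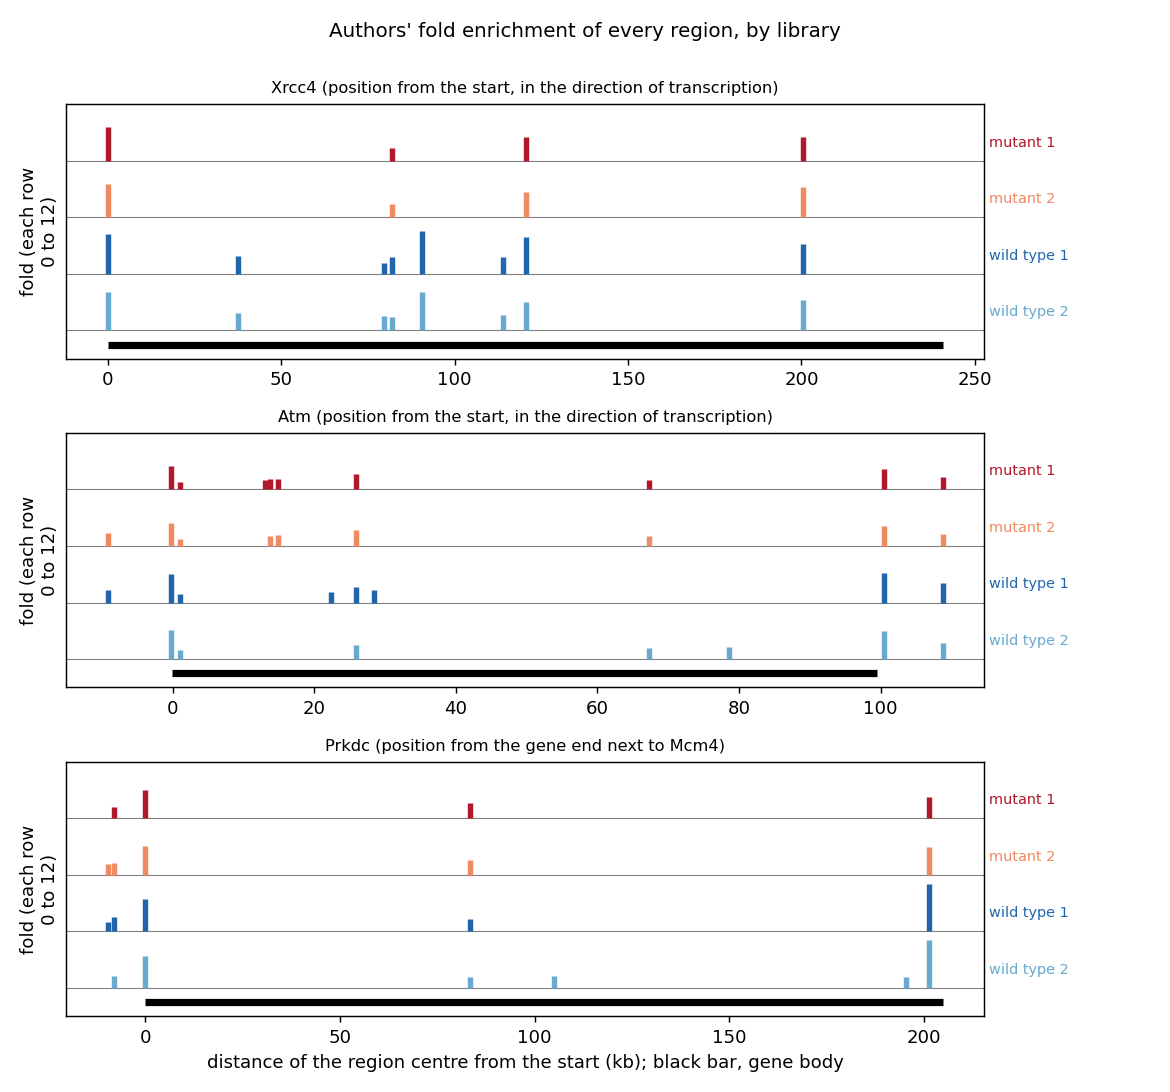
Every region of the Xrcc4, Atm and Prkdc windows in 1 row per library, the mutant libraries above the wild-type libraries. The horizontal axis is the distance of the region centre from the start in kb, bar height is the authors' fold (each row runs to 12) and the black bar is the gene body, and a reader can see the Xrcc4 region 90.2 kb past the start with fold 9.01 and 8.12 in the wild-type rows and no bar in the mutant rows.

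Atm, the kinase that signals DNA breaks and stabilises ends during V(D)J recombination, was the only member with regions called only in mutant. Its start peak, shared with Npat, a coactivator of histone genes, had fold 4.91 and 4.98 in mutant and 6.10 and 6.25 in wild type. Inside the gene (chr9:53437122-53536828), the region at chr9:53521709-53521872 (164 bp) had fold 2.26 and 2.43 in the mutant lists, and the region at chr9:53522808-53523095 (288 bp) had 2.28 and 2.20. They lie 14.8 and 13.6 kb past the start. A further peak beside them was found in mutant 1 alone, with fold 2.11, 465 bp from the closest peak of mutant 2.

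The closest peaks to this pair in wild type 1 were 7327 and 8426 bp away, and in wild type 2 they were 10899 and 11998 bp away. Both mutant regions were weak, with −log10 q of 1.58 to 2.39 where the mutant lists begin at 1.00 and 1.02, and neither was left when only peaks with −log10 q of 5 or more were kept. Of all protein-coding gene windows 5.63% had a region only in mutant and 0.964% had 2 or more, and among 1459 windows within 20% of the length of the Atm window 2.95% had 2 or more. Atm had 9 peaks in each mutant library, those of the 2 regions above included, and 8 and 7 in the wild-type libraries. It was the only member with more peaks in both mutant libraries than in either wild-type library. This order was seen in 0.743% of 18582 windows with a peak, of any length. It is not separate from the 2 regions. Fewer peaks in both mutant libraries were seen at 5 members (Xrcc4, Xrcc6, Lig4, Dclre1c and Trp53bp1) and in 54.4% of windows. The strongest region away from a start, beyond the far end at chr9:53435716-53436620, had fold 4.38 and 4.34 in mutant and 6.24 and 6.06 in wild type.

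Trp53bp1, which protects broken ends from resection and so favours end joining, had no region specific to a genotype. Its start peak had fold 6.24 and 6.61 in mutant and 8.18 and 8.26 in wild type. Of 12 regions in its window (gene body chr2:121194835-121296354), 7 were called in all 4 libraries. The highest was at the start of Map1a, a neuronal microtubule protein whose gene overlaps the annotated Trp53bp1 body, with fold 6.69 and 7.03 in mutant and 9.06 and 8.78 in wild type. Away from any start, the region at chr2:121188603-121188792, inside Tubgcp4, had fold 3.90 and 3.27 in mutant and 4.92 and 3.97 in wild type. As a ratio to the start peak of its list this was 0.625 and 0.495 in mutant and 0.602 and 0.480 in wild type, and these ratios overlap.

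Polm, a polymerase that fills in ends during joining, has a short gene (chr11:5827860-5838832) with 5 regions in its window, 2 of them in all 4 libraries. The start peak had fold 4.42 and 4.35 in mutant and 7.37 and 4.85 in wild type. It was 2223 and 2196 bp wide in mutant and 2213 bp in wild type 2, while wild type 1 had 2 peaks, the higher of 1041 bp, so the highest fold goes with the narrowest peak. The other region, at chr11:5828344-5830410, had fold 3.63 and 3.39 in mutant and 3.85 and 3.70 in wild type. The region at chr11:5848821-5849022 was called only in wild type, with fold 2.33 and 2.33, and lies 9.99 kb from the gene, just within the limit of 10 kb. Just outside that limit, 10.1 kb from Prkdc, lay a region of wild type 2 alone with fold 2.18.

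Across the 10 windows, 55 of 97 regions were called in all 4 libraries, 2 only in mutant and 10 only in wild type. The 2 made up 3.39% of the 59 regions called in both mutant libraries, against 1.75% over all regions. The 10 made up 14.5% of the 69 regions called in both wild-type libraries, against 15% over all regions. The share called in all 4 libraries was 56.7% here and 56.7% of all regions. With the lists as deposited, the windows thus stood at the background for wild type and for shared regions, and a count of 2 is too small to read against the mutant background. Regions only in wild type occurred in 6 of 10 windows (Xrcc4, Xrcc6, Lig4, Dclre1c, Nhej1 and Polm), against 43% of all gene windows, which have a median length of 37.2 kb where these run from 27.7 to 261 kb. Without wild type 2, a region needs only a peak of wild type 1, and the count of 10 becomes 23, or 26.4% of 87 regions, against 25.4% over all regions. With equal numbers of peaks from each list, 4 of 57 regions were only in mutant (7.02%, against 6.99% over all regions). In the same setting 5 of 55 were only in wild type (9.09%, against 4.92% over all regions).

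**Figure D4:**
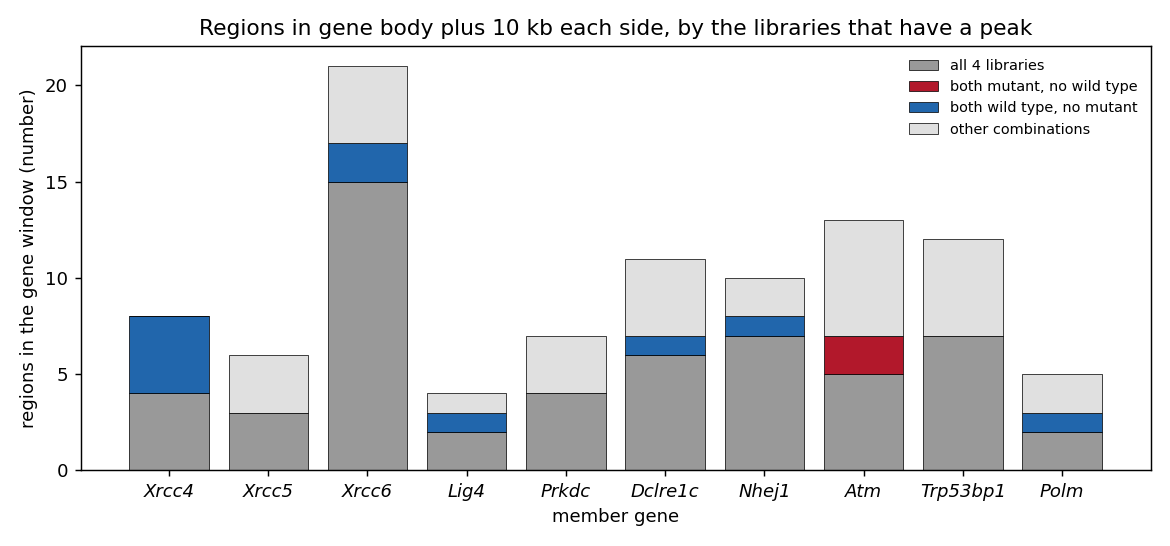
The number of regions in each member window (vertical axis), stacked by the libraries that have a peak. Specific to mutant are 2 of the 13 Atm regions, specific to wild type 4 of the 8 Xrcc4 regions, and the other combinations are mostly peaks of 1 library.

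In these windows, regions at gene starts were called in all 4 libraries more often than the others. All 12 regions at member starts were called in 4 of 4 libraries, as were 5 of 6 at starts of other genes. Of the 79 regions away from any start used here, 38 (48.1%) were. Among the 38, chr2:121294868-121297170 covers the upstream end of the annotated Trp53bp1 body, which was not used as a start. The same split was not made over all regions, so it cannot be called particular to these genes. The median width was 553 bp for regions in all 4 libraries and 187 bp for those only in wild type, against 608 and 176 bp over all regions. Of 20 regions found in a single library (20.6% of 97), 13 were in wild type 1, 5 in wild type 2 and 1 in each mutant library. Over all regions 36216 were found in a single library (20.1%), 20255 of them in wild type 1.

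The mutant libraries had 62 and 67 peaks in the member windows and the wild-type libraries 92 and 79. The groups do not overlap (64.5 ± 3.54 in mutant and 85.5 ± 9.19 in wild type, SD, n = 2 each, exact two-sided permutation p = 0.333, the smallest that 2 against 2 can give). The ratio of wild type to mutant was 1.33 here and 1.36 for the whole lists. Covered length was 40.2 and 41.7 kb in mutant and 40.4 and 39.9 kb in wild type, and the groups overlap (40.9 ± 1.05 and 40.1 ± 0.362 kb, SD, n = 2 each, exact permutation p = 0.667). Median peak width was 369 and 310 bp in mutant and 210.5 and 288 bp in wild type (exact permutation p = 0.333, n = 2 each). The difference in covered length was 0.812 kb (mutant minus wild type), 0.07 kb without mutant 2 and 1.55 kb without mutant 1, and that in median width was 90.25 bp, and 51.5 bp without wild type 1. With equal numbers of peaks from each list, the difference in peak number was 0.5 and that in median width was −5 bp (mutant minus wild type), each of the opposite sign (exact permutation p = 1). Covered length then no longer overlapped, with 39.8 and 41.7 kb in mutant and 35.4 and 36.5 kb in wild type (difference 4.78 kb, exact permutation p = 0.333). It did not overlap either with a −log10 q of 5 or more, with a difference of 1.92 kb (exact permutation p = 0.333).

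Covered length per window split the genotypes for 5 of 10 genes. Both mutant libraries had less than both wild-type libraries at Xrcc4, with 2065 and 2016 bp in mutant and 3094 and 3194 bp in wild type, and at Trp53bp1, with 5336 and 5484 bp in mutant and 5665 and 6023 bp in wild type. Both mutant libraries had more at Lig4, with 2181 and 2007 bp in mutant and 1920 and 1805 bp in wild type, at Atm, with 3778 and 3610 bp in mutant and 3295 and 2968 bp in wild type, and at Polm, with 4272 and 4692 bp in mutant and 3956 and 4224 bp in wild type. Of 18582 protein-coding gene windows with a peak, 32.1% had less in both mutant libraries and 29.1% had more, so shares of 2 and 3 in 10 are near the background. At Xrcc4, 769 bp of the covered length of each wild-type list lay in the strong region.

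Rag1, Rag2 and Dntt make the breaks that end joining repairs or add bases at them, and were set beside these genes by the same rule. Their windows held 30 regions, of which 19 were called in all 4 libraries (63.3%, against 56.7% over all regions). Only in mutant were 0 of 19 (1.75% over all regions), and only in wild type 3 of 26 (11.5%, against 15%). All 3 lay in the Rag1 window, which shares regions with that of Rag2. Rag1 had fold 4.46 and 4.60 in mutant and 5.26 and 5.09 in wild type. Rag2 had 2.92 and 2.69 in mutant and 2.86 and 2.92 in wild type, and Dntt, which adds bases to open ends, had 2.05 and 2.17 in mutant and 2.24 and 2.52 in wild type. The lowest start fold of an end joining gene was 3.81, at Xrcc6 in mutant 2.

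Against 66.8% of all protein-coding genes, 41 of 42 other genes of break repair had a start peak in all 4 libraries. They include Poll and Paxx, which act in end joining, Mre11a, Rad50 and Nbn, which form the end-processing complex, Parp1 and Lig3 of the alternative pathway, and Brca1 and Brca2 of homologous recombination. The exception, Rbbp8, a cofactor of resection, had no peak within 1 kb of its annotated start in any list, with the closest at 2161 and 5663 bp in mutant and 1895 and 2043 bp in wild type. The median start fold of these genes was 6.36 and 6.82 in mutant and 7.72 and 7.89 in wild type, and over all genes with a start peak it was 5.35 and 5.55 in mutant and 6.22 and 6.01 in wild type. In their windows, 2 of 195 regions were called only in mutant (1.03%, at Rbbp8 and Blm, against 1.75% over all regions). Only in wild type were 39 of 253 (15.4%, against 15% over all regions).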

How the data were processed

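ATAC-seq broad peak lists of 4 DN3 libraries were used, 1 list per library. The submitters' processing notes name MACS2 2.1.1, Bowtie2 2.3.3.1, cutadapt 1.16 and SAMtools 1.7, and the mm10 (GRCm38) build. Whether reads were filtered or shifted to the transposase cut is not given. Each deposited peak has a score, a fold enrichment (a ratio to local background) and −log10 p and −log10 q values, used only within that list. Depth is unknown, and no count model was fitted.

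Peaks of chromosomes X, Y and 1 to 19 were merged into regions, with an overlap of 1 bp or more counting as called. Only in mutant means in both mutant and no wild-type library, and only in wild type is the mirror case. Gene bodies and starts came from RefSeq tables (GRCm38.p6), without exons or introns. Libraries were compared by exact two-sided permutation. Named were all members with their start peaks, every genotype-specific region in their windows, and the highest region away from a start. The code was tested on simulated lists. Python 3.11.15, numpy 2.4.6 and pandas 2.3.3 were used. The members, gene lists and motifs were chosen with earlier results of these data known.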

Additional observations from a re-analysis of the deposited data

How the results depend on the processing

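Regions only in mutant numbered 0 with a −log10 q of 5 or more and 0 at fold 4 and above (1.72% and 1.55% over all regions). They numbered 4 when each list gave equally many peaks (7.02% of the mutant regions, against 6.99% over all regions). When peaks had to cover 50% of a region there were 5 (9.80%, against 7.46%). With any 1 library left out there were 3 (4.48% to 5.08%, against 2.56% to 4.11%). Regions only in wild type numbered 2 at fold 4 and above, 5 with equal numbers, 4 in gene bodies alone, and 10 to 23 when 1 library was left out, the 23 being without wild type 2. The shares of these in the wild-type regions of the windows were 8% at fold 4 (19.7% over all regions), 9.09% with equal numbers (4.92%) and 8.51% in gene bodies (15% over all regions, inside genes or not). With a −log10 q of 5 or more the share was 15.2% (10.3% over all regions). With 1 library left out the shares ran from 14.5% to 26.4% (19.3% to 25.4% over all regions). Regions in all 4 libraries numbered 20 of 30 with a fold of 4 or more. When 1 library was left out, regions in every library that remained numbered 56 to 59, of 83 to 98 regions. The same shares over all regions were not computed in these settings. With equal numbers of peaks the differences between genotypes (mutant minus wild type) were of the opposite sign, at 0.5 for the number of peaks and −5 bp for median width (exact permutation p = 1). By construction, a stricter threshold leaves fewer peaks, equal numbers shorten the longer wild-type lists, and leaving out a library leaves a genotype with 1. The other 69 values kept their direction, and counts stayed within 1.5 times. They include the replicate block differences below, which equal the main values by construction. Counts of genes with a start peak are included too, and these cannot fall when a library is left out. No p of this design can reach 0.05, and the sizes moved. When 1 library was left out, the difference in peak number ran from −27.5 to −14.5, that in covered length from 0.07 to 1.55 kb and that in median width from 51.5 to 129 bp. In gene bodies alone the width difference was 14 bp, and with equal numbers of peaks the covered length difference was 4.78 kb. The strong Xrcc4 region was called only in wild type in every setting run, but no setting could add a mutant peak there.

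The labels give the genotypes the same replicate numbers, and nothing says that a number marks a shared animal or day. With the replicate number as a block, the differences were −21 peaks (exact sign-flip permutation p = 0.5, the smallest that 2 pairs allow), 0.812 kb of covered length (p = 1) and 90.25 bp of median width (p = 0.5). Pairing could not be checked, since the lists hold no counts. The unknown depth limits every statement on a missing peak.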
